A study of Mus musculus with 19 samples.

Results

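The knockdown of Sox21os in mouse neural cultures is represented by 1 library, shSox21os, which was set against both control libraries grown the same way, so that 3 of the 19 RNA-seq libraries of the series form the comparison. All 3 were 46c cells, a mouse embryonic stem cell line with a green fluorescent reporter at Sox1, kept in the serum-free medium N2B27 with retinoic acid at 5 nM and harvested on day 4. The shSox21os library carried a short hairpin RNA against the long non-coding RNA Sox21os, and the 2 shCtrl libraries carried a control hairpin. Another 4 libraries of the same line, medium and day, 2 with a hairpin against the lncRNA Nr2f1as and 2 against Pou3f3os, were used to see whether a difference was shared by other knockdowns. The remaining 12 libraries were CJ7 or CJ9 stem cells, not 46c. They were differentiated by LIF withdrawal and harvested on day 4, 5 or 6, so line and culture both differ from the retinoic acid libraries. They carried hairpins against Evx1as, EVX1, Lhx1os or Fendrr, or control hairpins. These 12 entered only the estimate of spread and a few level statements. Whether numbered libraries of a group were separate cultures or separate hairpins, or whether cells were cloned or pooled, is not stated in the labels. Every statement about shSox21os therefore rests on 1 library.

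Sox21 is a transcription factor of the SoxB group. The SoxB1 proteins Sox1, Sox2 and Sox3 hold neural progenitors in an undifferentiated state, and Sox21 is known to counter them and to favour neuronal differentiation. Divergent lncRNAs such as Sox21os start near the promoter of a coding gene and run in the opposite direction, and some act on that neighbour. Retinoic acid binds nuclear receptors that switch on Hox genes in order along the clusters and gives cultured neural progenitors a hindbrain or spinal identity.

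Levels are given as FPKM, fragment counts scaled for transcript length and library size. Tests used limma on log2(FPKM + 1), two-sided, with Benjamini-Hochberg adjustment over 14942 kept entries and a threshold of 0.05. Library totals lay between 595720 and 644269 FPKM in the 7 retinoic acid libraries. From the steps between low values, the controls had 1.07 and 1.13 times the depth of shSox21os, and the other knockdown libraries 0.933 to 1.03 times. The neural progenitor markers (8 of 8 detected) summed to 467 FPKM in shSox21os, compared with 594 and 524 FPKM in the controls. The pluripotency markers were not near 0, at 270 FPKM in shSox21os, compared with 66.5 and 424 FPKM in the controls. Streak and mesoderm markers summed to 2.32 FPKM in shSox21os, compared with 2.81 and 2.39 FPKM, and 2 of 4 blood and endothelial markers were at 0 in all 7 libraries. The controls differed from each other, and 604 entries differed by 2-fold or more between them. Against each control alone, 645 and 582 entries differed by 2-fold in shSox21os.

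Sox21 lay lower in shSox21os than in either control, but the difference did not pass the test. No entry is named Sox21os. The candidate nearest by position is AK039417 (mm9 chr14:118635454-118637981), which overlaps Sox21 (mm9 chr14:118632456-118636252) by 799 bp. It extends 1729 bp past the higher Sox21 coordinate, which is the start side of Sox21, a minus-strand gene. The strand of AK039417 is not listed. AK039417 was at 7.77 FPKM in shSox21os, at 11.5 and 8.71 FPKM in shNr2f1as, at 8.20 and 13.0 FPKM in shPou3f3os, and at 12.9 and 13.2 FPKM in shCtrl. Its shSox21os value was the lowest of the 7 libraries, and 1 shNr2f1as and 1 shPou3f3os library lay close to it. The log2 difference from control was -0.68 ± 0.26 (SE, adjusted p = 0.351 by limma). Against the other knockdowns it was -0.35 (adjusted p = 1.0 by limma).

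Sox21 itself was at 19.5 FPKM in shSox21os, at 25.6 and 20.3 FPKM in shNr2f1as, at 22.9 and 27.1 FPKM in shPou3f3os, and at 26.3 and 29.0 FPKM in shCtrl. The shSox21os library was again the lowest, next to an shNr2f1as library. The log2 difference was -0.48 ± 0.25 (SE, adjusted p = 0.504 by limma). Reads within the overlap of Sox21 and AK039417 cannot be told apart where counting did not use strand. Of the 6 entries within 100 kb, the third that passed the filter was Gpr180, a G protein-coupled receptor family gene, at 9.23 FPKM in shSox21os and at 7.86 and 9.51 FPKM in the controls. The SoxB1 genes did not stand apart. Sox1 was at 83.3 FPKM in shSox21os, compared with 94.1 and 83.7 FPKM in the controls. Sox2 was at 167 FPKM, against 169 and 196 FPKM, and Sox3 was at 108 FPKM, between its controls at 115 and 106 FPKM. Abcc4, a membrane transporter of organic anions further along the chromosome (mm9 chr14:118881914-119105441), lay higher, at 17.2 FPKM in shSox21os against 6.54 and 10.1 FPKM in the controls (adjusted p = 0.334 by limma).

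The sequence before the Sox21 start is shown because an annotated lncRNA gene covers it. In GRCm38.p6, RefSeq places the lncRNA gene Gm4675 over the first 799 bases of Sox21 and over the whole 250-base window upstream. The window is chr14:118237031-118237280, minus strand, taken from RefSeq.
Sox21 promoter: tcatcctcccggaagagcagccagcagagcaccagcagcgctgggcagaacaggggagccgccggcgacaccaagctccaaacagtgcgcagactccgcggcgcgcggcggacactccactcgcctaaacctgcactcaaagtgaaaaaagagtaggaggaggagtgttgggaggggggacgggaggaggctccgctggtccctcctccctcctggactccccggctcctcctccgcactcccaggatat
No capitals are used because no motif was searched there.

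**Figure D1:**
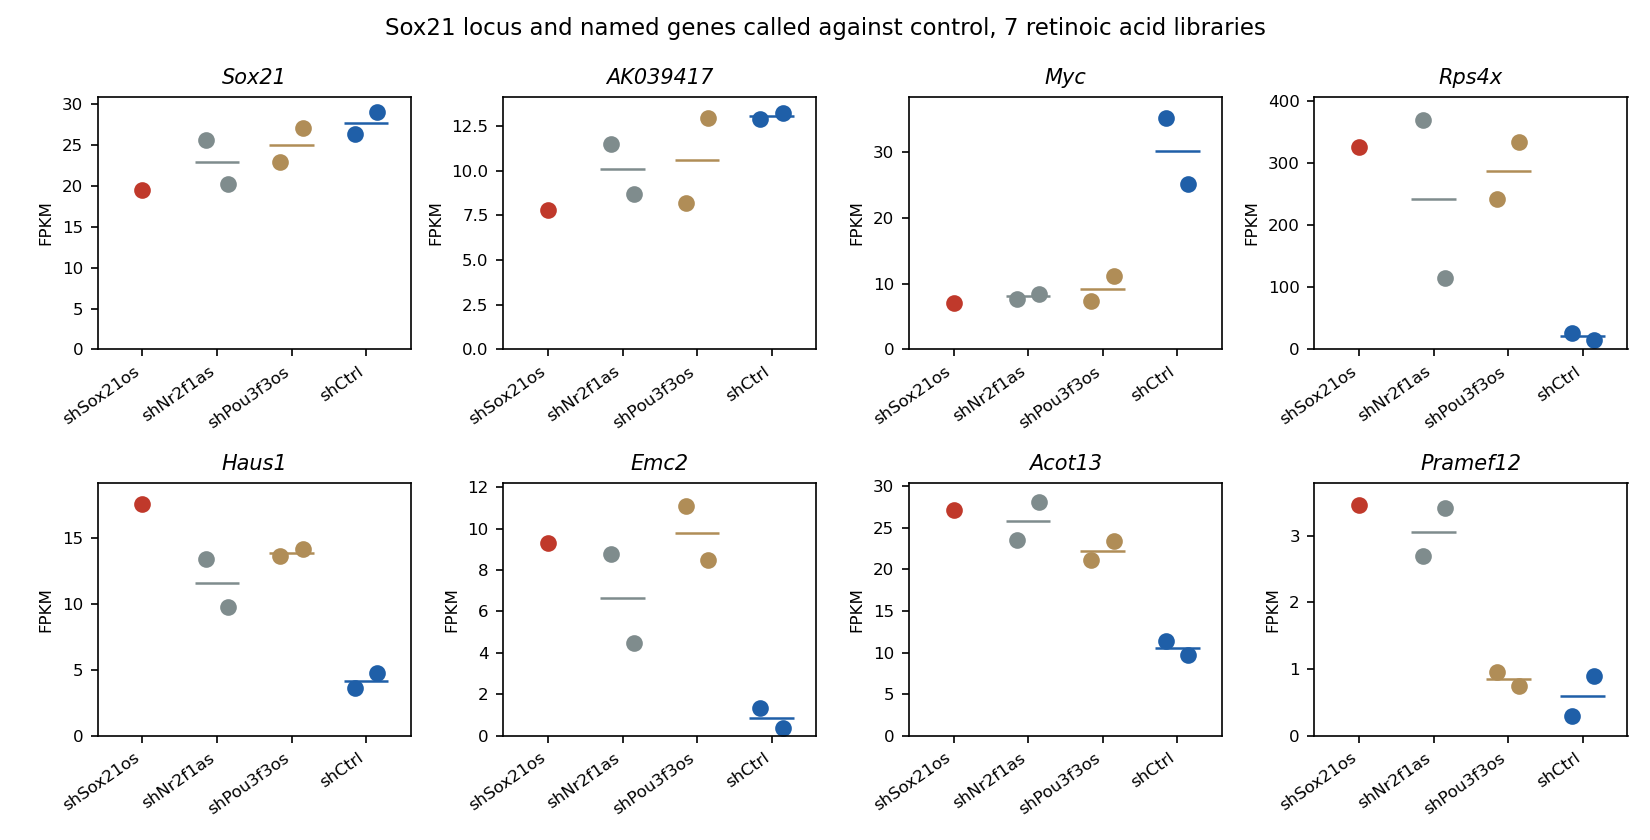
FPKM (vertical axis) of Sox21, AK039417 and the 6 named genes that passed the test against control, by knockdown group, with 1 point per library and a bar at the mean of groups of 2. Myc lies at 7.06 FPKM in shSox21os against 35.2 and 25.1 FPKM in shCtrl, and the other 2 knockdown groups lie near shSox21os for most of these genes.

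Against control, 10 of 14942 entries passed the test (0.0669%), 7 of them higher (0.0468%) and 3 lower (0.0201%) in shSox21os. At an unadjusted p under 0.05 there were 1706 entries (11.4%). Named genes made up 6 of the 10, and 1 of these, Myc, fell. The fit of the retinoic acid libraries alone ended 9 of the 10 calls, with limma adjusted p between 0.142 and 0.418, and kept XLOC_012997. Without control replicate 2 the calls of Acot13, Emc2, Gm8994 and Rps4x ended, and 29 entries passed, while 186 passed without control replicate 1.

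Myc, the proliferation and growth transcription factor, fell. It was at 7.06 FPKM in shSox21os, at 7.70 and 8.48 FPKM in shNr2f1as, at 7.38 and 11.1 FPKM in shPou3f3os, and at 35.2 and 25.1 FPKM in shCtrl. The 5 knockdown libraries lay together, below both controls and without overlap. The log2 change was -1.93 ± 0.25 (SE, adjusted p = 0.0359 by limma). In the LIF withdrawal libraries Myc was between 26.7 and 45.1 FPKM. Set against the other retinoic acid knockdowns, the difference was -0.25 (adjusted p = 1.0 by limma).

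Rps4x, which encodes a protein of the small ribosomal subunit, rose most among named genes. It was at 325 FPKM in shSox21os, at 370 and 114 FPKM in shNr2f1as, at 241 and 334 FPKM in shPou3f3os, and at 27.2 and 15.6 FPKM in shCtrl. Both controls were below all the other 17 libraries of the series, since the LIF withdrawal libraries held 524 to 1234 FPKM. The log2 change was 3.91 ± 0.52 (SE, adjusted p = 0.0359 by limma). Ribosomal protein genes have many near-identical processed copies in the genome, so their values are uncertain.

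Haus1, a subunit of the augmin complex that nucleates spindle microtubules, was at 17.6 FPKM in shSox21os, compared with 3.61 and 4.76 FPKM in the controls (log2 change 1.85 ± 0.25 SE, adjusted p = 0.0359 by limma). Emc2, a subunit of the complex that inserts membrane proteins into the endoplasmic reticulum, was at 9.33 FPKM, against 1.36 and 0.391 FPKM (log2 change 2.51 ± 0.36 SE, adjusted p = 0.0359 by limma). Acot13, an acyl-CoA thioesterase, was at 27.2 FPKM, against 11.4 and 9.67 FPKM (log2 change 1.29 ± 0.18 SE, adjusted p = 0.0359 by limma). For these 3 genes the other 4 knockdown libraries also lay above both controls, at 9.78 to 14.1 FPKM for Haus1, 4.47 to 11.1 FPKM for Emc2 and 21.1 to 28.1 FPKM for Acot13. Pramef12, a member of a gene family expressed in germ cells, differed in this respect. It was at 3.45 FPKM in shSox21os and at 2.69 and 3.42 FPKM in shNr2f1as, while shPou3f3os, at 0.953 and 0.740 FPKM, lay near the controls at 0.301 and 0.894 FPKM (adjusted p = 0.0359 by limma).

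The other 4 calls were entries without a gene name or with a predicted one. XLOC_012997, an unnamed assembled locus (mm9 chr2:161167429-161172534), was at 8.79 FPKM in shSox21os and at 6.37 and 4.28 FPKM in shNr2f1as, and was listed at 0 in both shPou3f3os libraries, in both controls and in all LIF withdrawal libraries. It had the smallest adjusted p (8.18e-05 by limma). It passed the filter only through shSox21os and shNr2f1as, so against control it could only lie higher. All groups of 2 except shNr2f1as were at 0 and added no spread, so this small p is no measure of reproducibility. XLOC_006022 (mm9 chr13:78338513-78354754), which lies beside Nr2f1, was at 5.57 FPKM in shSox21os, at 10.2 and 5.98 FPKM in shNr2f1as, at 19.4 and 18.8 FPKM in shPou3f3os, and at 24.7 and 19.3 FPKM in shCtrl (log2 change -1.80 ± 0.26 SE, adjusted p = 0.0359 by limma). Its level was lowest in shSox21os, below both libraries with the hairpin against Nr2f1as, and the shPou3f3os libraries lay near the controls. Nr2f1, the orphan nuclear receptor encoded there, was at 5.10 FPKM in shSox21os, at 9.35 and 4.94 FPKM in shNr2f1as, at 15.2 and 12.6 FPKM in shPou3f3os, and at 21.4 and 16.4 FPKM in shCtrl (log2 difference -1.69 ± 0.29 SE, adjusted p = 0.0773 by limma). AK019124 was at 6.19 FPKM in shSox21os, compared with 0 and 0.439 FPKM in the controls, and the predicted gene Gm8994 at 0.134 FPKM, against 2.52 and 2.99 FPKM.

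The range of both controls gives a second reading, a description without a test. Over all kept entries, 67.8% lay outside that range at all, 37.2% above and 30.7% below. Of 8836 entries that reached 5 FPKM in any of the 3 libraries, 110 lay outside by 2-fold or more (1.24%). Of these, 71 were above (0.804%) and 39 below (0.441%), and 26 and 12 of them were not named genes. An entry that reached 5 FPKM only in shSox21os could not lie below both controls. One that reached it only in a control could not lie above both. The same count against the same controls was 117 and 133 in the shNr2f1as libraries and 115 and 101 in the shPou3f3os libraries. Where the other libraries lay was counted too. Among the 71 higher entries, 48 (67.6%) had both controls below all 17 other libraries, a pattern found in 6.04% of the entries considered. Likewise 59 of the 71 (83.1%) had both controls below all 5 retinoic acid knockdown libraries (14.6% of all), and 29 of the 39 lower entries (74.4%) had both above them (18.3% of all). Part of the excess over these shares follows from the choice of the 110, since shSox21os is itself among the libraries compared. The hairpins share both controls, so these comparisons are not independent of each other. The named genes above both controls by 2-fold also had short transcripts of low GC content, with a median of 1874 bases and 47.0% GC, against 2404 bases and 55.1% in those below by 2-fold and 3261 bases and 51.4% over all named genes considered. The part of transcript length, GC content or library preparation in these differences was not tested.

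**Figure D2:**
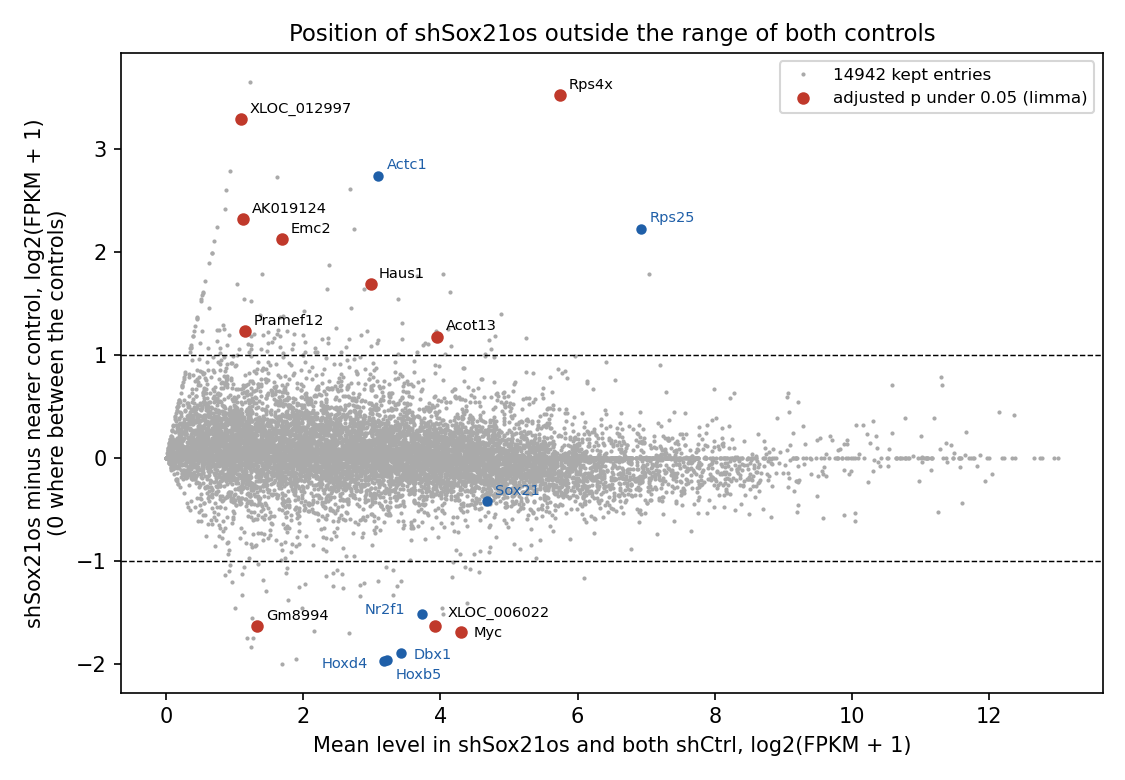
Distance of shSox21os from the nearer control on the log2(FPKM + 1) scale (vertical axis, 0 where it lies between the controls) against the mean level of the 3 libraries (horizontal axis), for 14942 entries, with dashed lines at 2-fold. Red points passed the limma test, and blue points are named genes that did not. Rps4x stands at 3.53, and Hoxd4, Hoxb5 and Dbx1 lie at -1.98, -1.96 and -1.89.

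The named genes furthest above both controls were Rps4x, Actc1, Slirp, Rps25, Ppih, Emc2, Trappc1, Acta1, Mpc1, Clybl, Haus1 and Rps15a, and only Rps4x, Emc2 and Haus1 passed the test. Of these, Actc1, Slirp, Ppih, Emc2, Trappc1, Mpc1, Haus1 and Rps15a reached the required 5 FPKM only in shSox21os, so they could enter only as rises. Several of the genes furthest above are small housekeeping genes. Rps25, of the small ribosomal subunit, was at 620 FPKM in shSox21os, between 266 and 593 FPKM in the other knockdowns, and at 131 and 20.9 FPKM in the controls (adjusted p = 0.152 by limma). Slirp, a mitochondrial RNA-binding protein, was at 24.8 FPKM in shSox21os, compared with 3.21 and 1.43 FPKM in the controls, but ran between 1.57 and 48.7 FPKM in the other knockdowns. Mpc1, a subunit of the mitochondrial pyruvate carrier, was at 5.08 FPKM, against 0.737 and 0.760 FPKM. Ribosomal protein genes as a class did not follow Rps4x and Rps25. Of the 92 entries so picked, 11 lay above both controls by a margin of 25% or more (10.3% of all entries did), and 1 lay below. The margin means that the higher FPKM + 1 exceeded the lower by that much. The median log2 difference of the 92 was 0.05, against 0.03 over all entries.

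Muscle actin genes also lay far above both controls. Actc1, the cardiac alpha-actin, was at 32.0 FPKM in shSox21os, at 11.8 and 16.4 FPKM in shNr2f1as, at 6.15 and 19.7 FPKM in shPou3f3os, and at 3.93 and 2.81 FPKM in shCtrl. Its shSox21os value was the highest of the 7, and all knockdown libraries lay above both controls. The log2 difference of 2.93 ± 0.49 (SE) did not pass (adjusted p = 0.0773 by limma), and against the other knockdowns it was 1.29 (adjusted p = 1.0 by limma). Acta1, the skeletal alpha-actin, was at 48.0 FPKM in shSox21os, compared with 13.2 and 5.41 FPKM in the controls, and Acta2, the smooth muscle actin, at 82.7 FPKM, against 30.7 and 8.59 FPKM. The coding sequences of the actins are nearly alike, and the labels do not state how shared reads were assigned.

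The promoters of Actc1 and Acta1 are shown because both genes lay higher and each holds a CArG box, the element bound by serum response factor, in capitals. The box was searched as CCWWWWWWGG, where W is A or T, with no mismatch allowed. The window of Acta2, also searched, holds no exact match, so 2 of 3 matched. Near matches, such as CCCTATATGG and CCTTGTTTGG in the Acta2 window, were not counted. The box lies on the gene's own strand, 47 bases before the start in Actc1 and 73 in Acta1. Both windows are minus strand in GRCm38.p6 from RefSeq, at chr2:114052876-114053125 and chr8:123894776-123895025. In 250-base windows searched on both strands, 1.47% of 32851 promoters hold the box.
Actc1 promoter: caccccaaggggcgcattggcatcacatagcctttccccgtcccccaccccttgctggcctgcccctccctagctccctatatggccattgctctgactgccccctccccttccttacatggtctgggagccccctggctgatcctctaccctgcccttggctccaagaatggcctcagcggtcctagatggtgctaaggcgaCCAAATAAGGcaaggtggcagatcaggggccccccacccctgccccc
Acta1 promoter: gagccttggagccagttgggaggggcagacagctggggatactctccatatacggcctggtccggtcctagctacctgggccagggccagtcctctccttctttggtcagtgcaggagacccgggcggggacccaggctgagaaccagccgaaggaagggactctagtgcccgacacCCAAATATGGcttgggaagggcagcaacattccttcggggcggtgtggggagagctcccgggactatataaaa
The match is a description of these letters and does not show binding.

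The Hox genes of the middle paralogue groups, Hox4 to Hox6, lay lower together. Of 10 listed genes, 9 passed the filter on low values and all 9 lay below both controls (30.7% of all entries did), 7 of them by the 25% margin (6.05% of all) and 5 by 2-fold. None passed the adjusted test. Their median log2 difference was -1.64, against 0.03 over all entries. The tenth, Hoxa6, was at 0.190 FPKM in shSox21os and at 0.0883 and 0.168 FPKM in the controls.

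Hoxd4 was at 2.07 FPKM in shSox21os, at 4.45 and 0.376 FPKM in shNr2f1as, at 3.17 and 6.48 FPKM in shPou3f3os, and at 19.1 and 11.1 FPKM in shCtrl. All 5 knockdown libraries lay below both controls, and an shNr2f1as library lay lowest. Its log2 difference was -2.34 ± 0.63 (SE, adjusted p = 0.224 by limma). Hoxb5 was at 2.59 FPKM in shSox21os, at 3.97 and 1.26 FPKM in shNr2f1as, at 1.80 and 4.15 FPKM in shPou3f3os, and at 13.0 and 15.3 FPKM in shCtrl (adjusted p = 0.137 by limma). Hoxb4 was at 6.56 FPKM in shSox21os, compared with 26.2 and 20.6 FPKM in the controls, with 5.68 to 13.2 FPKM in the other knockdowns (adjusted p = 0.146 by limma). These genes share the same order, with the knockdown groups intermixed below the controls. Hoxc4 was at 8.78 FPKM, against 34.6 and 24.9 FPKM, and Hoxc5 at 1.59 FPKM, against 10.8 and 7.39 FPKM. Set against the other knockdowns, the median of the middle Hox genes was -0.17 on the log2 scale.

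The anterior genes, Hox1 to Hox3, were less far from the controls. Of 8, 5 lay below by the 25% margin (6.05% of all entries did), and the median was -0.46, against 0.03 over all entries. Hoxd3 was at 20.7 FPKM in shSox21os, compared with 79.7 and 41.5 FPKM, and Hoxb3 at 4.83 FPKM, against 12.3 and 11.4 FPKM (adjusted p = 0.13 by limma). Of 8 measured posterior Hox and Cdx genes, 2 lay below by that margin, Hoxb8 at 3.64 FPKM against 10.7 and 16.9 FPKM, and Hoxb7 at 2.85 FPKM against 6.07 and 6.88 FPKM, and the list median was -0.27.

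**Figure D3:**
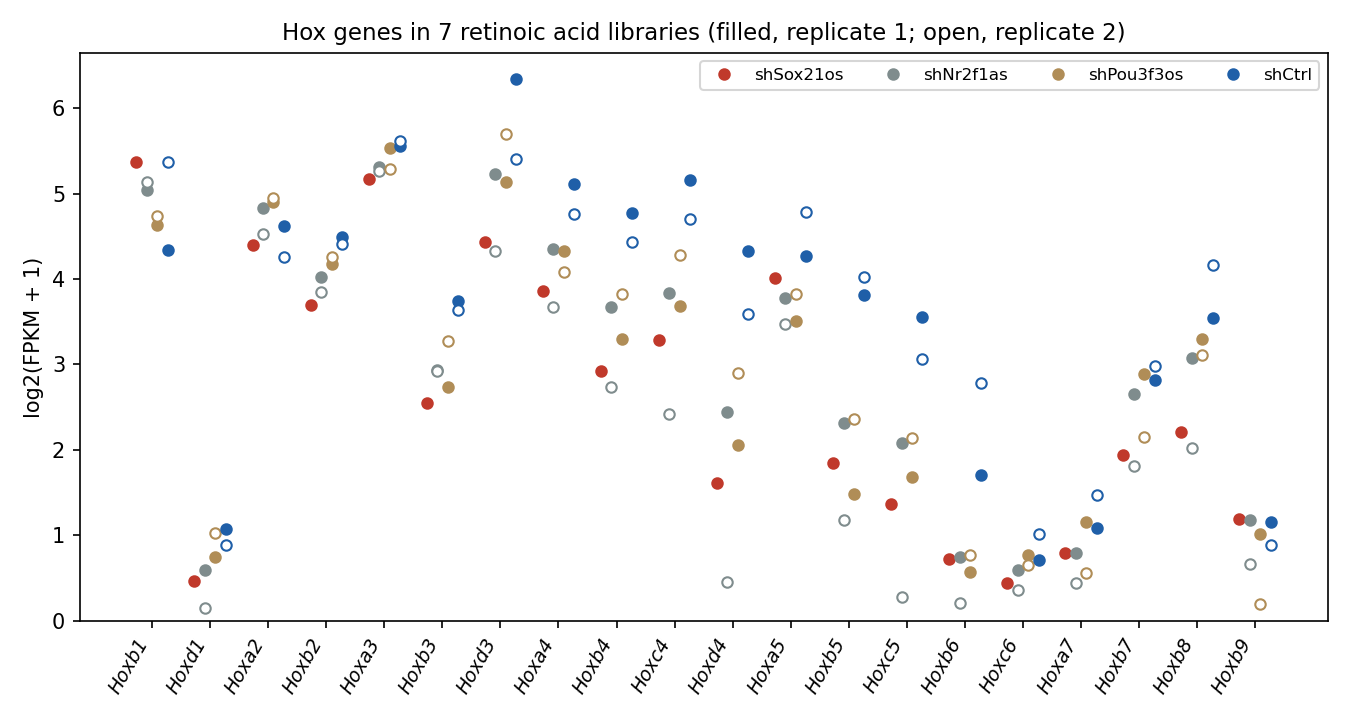
Level of 20 Hox genes in log2(FPKM + 1) (vertical axis), ordered by paralogue group (horizontal axis), in the 7 retinoic acid libraries, with filled points for replicate 1 and open points for replicate 2. In Hoxb4, Hoxc4, Hoxd4, Hoxb5 and Hoxc5 all 5 knockdown libraries lie below both blue control points.

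The promoters of Hoxb4, Hoxc4 and Hoxd4 are shown because these 3 of the 5 middle Hox genes with a RefSeq promoter hold AGGTCA, the half-site of nuclear receptors including those of retinoic acid. The match is in capitals and lies on the opposite strand, so it reads TGACCT. It is 81 bases before the start in Hoxb4, 146 in Hoxc4 and 145 in Hoxd4. All are plus strand in GRCm38.p6, at chr11:96318017-96318266, chr15:103034145-103034394 and chr2:74721728-74721977. Of 32851 promoters searched on both strands, 14.0% hold these letters.
Hoxb4 promoter: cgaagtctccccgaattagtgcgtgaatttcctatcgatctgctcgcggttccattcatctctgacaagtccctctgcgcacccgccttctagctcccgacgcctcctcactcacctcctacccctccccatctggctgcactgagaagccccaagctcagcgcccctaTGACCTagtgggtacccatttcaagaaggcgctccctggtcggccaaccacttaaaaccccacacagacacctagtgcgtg
Hoxc4 promoter: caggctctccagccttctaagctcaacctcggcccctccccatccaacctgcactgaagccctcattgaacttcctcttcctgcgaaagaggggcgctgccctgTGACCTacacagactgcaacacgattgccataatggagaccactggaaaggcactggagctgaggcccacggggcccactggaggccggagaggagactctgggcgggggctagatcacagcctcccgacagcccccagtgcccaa
Hoxd4 promoter: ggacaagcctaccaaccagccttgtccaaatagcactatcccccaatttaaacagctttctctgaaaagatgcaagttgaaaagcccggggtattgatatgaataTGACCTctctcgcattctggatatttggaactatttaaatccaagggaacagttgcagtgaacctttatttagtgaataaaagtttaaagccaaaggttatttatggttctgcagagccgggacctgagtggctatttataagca
A single half-site is common, and these letters say nothing of receptor binding.

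The 12 named genes furthest below both controls were Hoxd4, Hoxb5, Dbx1, Hoxc5, Myc, Foxe3, Hoxb4, Nr2f1, Prdm12, Serpinf1, Hoxc4 and Arg1, and of these Myc passed the test. Hoxd4, Hoxb5, Dbx1, Hoxc5, Foxe3, Prdm12 and Arg1 reached the required 5 FPKM only in controls, so they could enter only as falls. Foxe3, a forkhead factor, was at 0.982 FPKM in shSox21os, compared with 6.07 and 5.34 FPKM in the controls, and Prdm12, a spinal interneuron progenitor factor, was at 0.884 FPKM, against 5.29 and 4.17 FPKM. In both genes the other 4 knockdown libraries also lay below both controls.

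Patterning genes outside the Hox clusters were read as separate lists by region, and a difference between these lists was not tested. Of 20 measured dorsoventral and spinal progenitor genes, 6 lay below both controls by the 25% margin (6.05% of all entries did) and 1 above (10.3% of all), with a median of -0.24. Of 18 forebrain, midbrain and hindbrain genes, 4 lay below and 2 above, with a median of 0.01. Among these, Pax2, a midbrain and hindbrain boundary factor, was at 4.32 FPKM in shSox21os and at 15.3 and 11.6 FPKM in the controls, and Fezf2, a forebrain factor, at 3.91 FPKM in shSox21os and at 2.28 and 2.40 FPKM in the controls. Dbx1, a homeodomain factor of interneuron progenitors, was at 3.44 FPKM in shSox21os, at 5.34 and 1.82 FPKM in shNr2f1as, at 3.32 and 8.86 FPKM in shPou3f3os, and at 15.9 and 15.5 FPKM in shCtrl (log2 difference -1.91 ± 0.47 SE, adjusted p = 0.178 by limma). Again the knockdown groups were intermixed below the controls. Of 24 retinoic acid response genes, 4 lay below and 2 above, against 6.05% and 10.3% of all entries, with a median of -0.13. Tshz1, a zinc finger factor, was at 22.9 FPKM in shSox21os, compared with 61.6 and 41.8 FPKM. Stra6, the retinol transporter, was at 71.8 FPKM, against 52.6 and 44.1 FPKM.

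Of 24 measured neural progenitor genes, 8 lay below both controls by the 25% margin (6.05% of all entries did) and 3 above (10.3% of all), with none called and a median of -0.17. Zic1, a zinc finger factor of dorsal neural progenitors, was at 13.7 FPKM in shSox21os, at 22.1 and 23.8 FPKM in shNr2f1as, at 43.8 and 25.4 FPKM in shPou3f3os, and at 42.7 and 26.6 FPKM in shCtrl. Its shSox21os value was the lowest of the 7 libraries by more than 1.5 times. The log2 difference was -1.24 ± 0.31 (SE, adjusted p = 0.188 by limma) against control and -0.97 (adjusted p = 1.0 by limma) against the other knockdowns. Pou3f3, a POU factor of neural progenitors, was at 1.88 FPKM in shSox21os, compared with 5.86 and 5.38 FPKM in the controls, and Pou3f2 at 0.747 FPKM, against 4.35 and 2.48 FPKM. Hes5, a Notch effector, was at 6.02 FPKM, against 8.73 and 8.92 FPKM. In the other direction Fabp7, a radial glial lipid-binding protein, was at 2.18 FPKM in shSox21os, compared with 0.156 and 0 FPKM. Fabp7 passed the filter through retinoic acid knockdown libraries alone. With 1 control at 0, it could not lie below both.

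Of 26 proneural and Notch pathway genes, 4 lay below by the 25% margin and none above, against 6.05% and 10.3% of all entries. Neurog1, a proneural factor, was at 0.470 FPKM in shSox21os, compared with 1.95 and 1.61 FPKM in the controls. Neurog1 passed the filter through its control values alone, so it could only lie lower. Id3, an inhibitor of proneural factors, was at 28.4 FPKM in shSox21os and ran from 20.6 to 139 FPKM in the other knockdowns, with controls at 161 and 64.9 FPKM. Of 16 neuronal genes, 1 lay below and 1 above by the same margin. Tubb3, the neuronal tubulin, was at 48.5 FPKM in shSox21os, compared with 48.6 and 49.7 FPKM. Stmn2, a growth-cone protein, was at 73.4 FPKM, against 42.1 and 34.3 FPKM. The other knockdowns were higher still for Stmn2, at 76.5 to 140 FPKM. In bulk RNA, fewer cells of a type and less RNA per cell cannot be told apart.

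The pluripotency genes lay between the controls, whose spread was wide. Of 29 measured, 3 lay above both by the 25% margin (10.3% of all entries did) and none below. Pou5f1 was at 180 FPKM in shSox21os, at 92.1 and 194 FPKM in shNr2f1as, at 47.2 and 44.6 FPKM in shPou3f3os, and at 43.5 and 282 FPKM in shCtrl. Nanog was at 34.1 FPKM in shSox21os, at 22.5 and 32.0 FPKM in shNr2f1as, at 10.5 and 14.2 FPKM in shPou3f3os, and at 8.65 and 59.1 FPKM in shCtrl. The list's median difference was 1.03 on the log2 scale against control replicate 1 and -0.22 against control replicate 2, so its direction depends on which control is used. Of 17 primed epiblast genes, 5 lay above both controls by that margin (10.3% of all entries did). Here too the median differed by control, at 1.14 against replicate 1 and -0.02 against replicate 2. Pou3f1, a POU factor of the epiblast, was at 39.4 FPKM in shSox21os, compared with 11.7 and 24.3 FPKM (adjusted p = 0.381 by limma), and Foxd3 at 2.42 FPKM, against 0.548 and 1.53 FPKM.

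**Figure D4:**
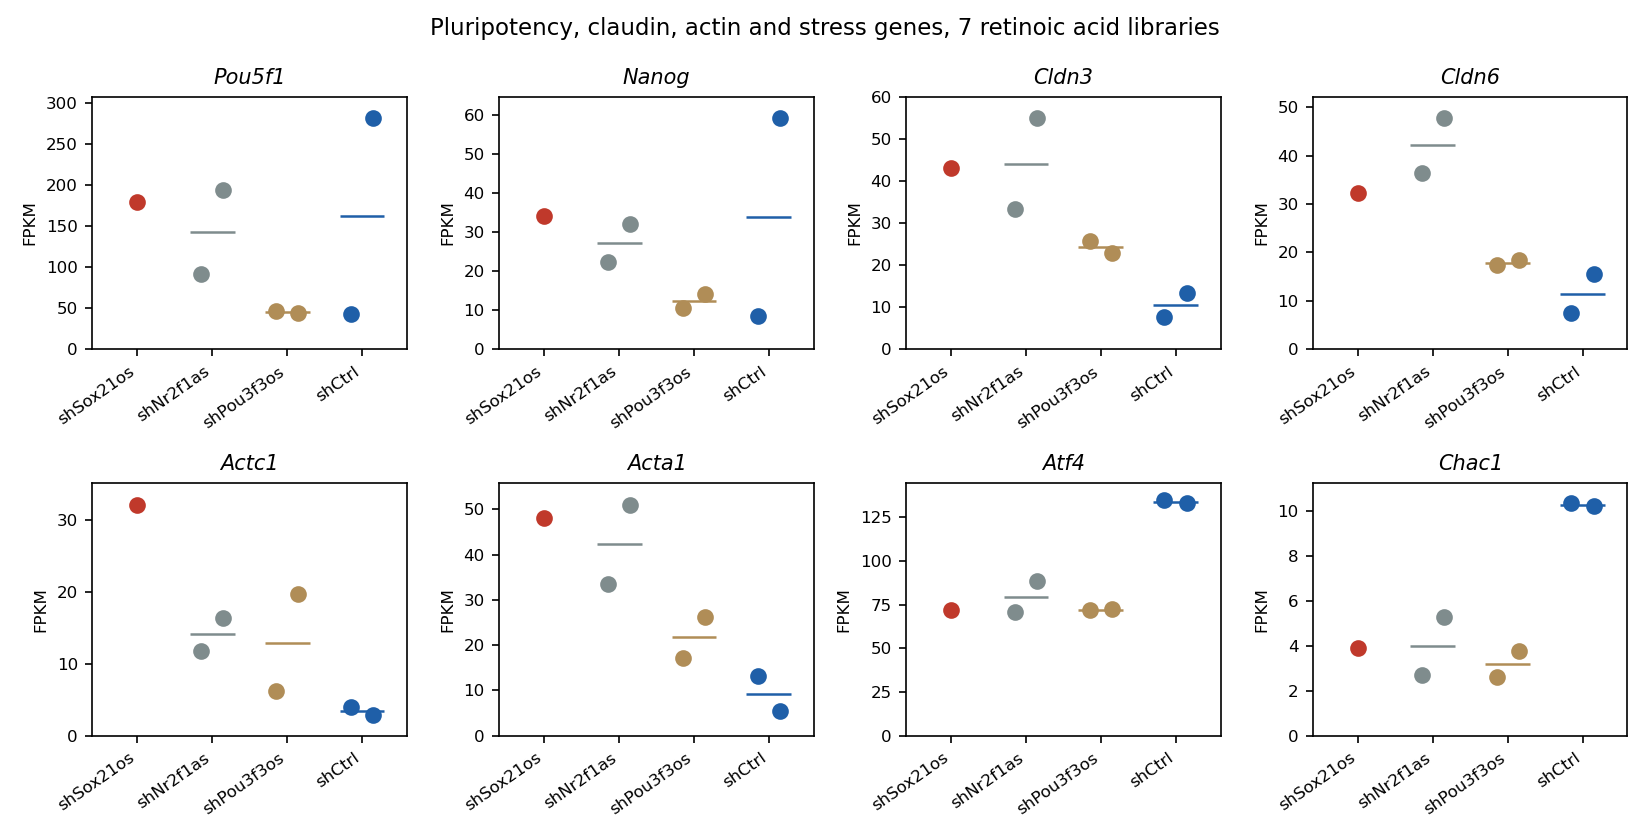
FPKM (vertical axis) of 2 pluripotency factors, 2 claudins, 2 actins and 2 stress genes by knockdown group, with 1 point per library and a bar at the mean of groups of 2. Pou5f1 and Nanog lie between the controls in shSox21os, while for Atf4 and Chac1 all 5 knockdown libraries lie below both controls.

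Epithelial junction genes were among those above both controls. Of 20 measured epithelial genes, 6 lay above by the 25% margin (10.3% of all entries did) and 1 below. Cldn3, a tight junction claudin, was at 43.2 FPKM in shSox21os, at 33.4 and 54.9 FPKM in shNr2f1as, at 25.8 and 22.9 FPKM in shPou3f3os, and at 7.64 and 13.5 FPKM in shCtrl. The groups did not overlap with the controls, and shPou3f3os lay between. The log2 difference was 1.98 ± 0.45 (SE, adjusted p = 0.157 by limma). Cldn6 was at 32.3 FPKM, against 7.47 and 15.5 FPKM, Cldn4 at 28.7 FPKM, against 7.33 and 14.9 FPKM, and Cldn7 at 8.72 FPKM, against 1.47 and 4.78 FPKM. Of 13 fibroblast genes, 7 lay above and none below. Col1a1, a fibrillar collagen chain, was at 6.64 FPKM in shSox21os, compared with 3.99 and 1.39 FPKM in the controls. In the other knockdowns Col1a1 was higher still, at 7.48 to 22.3 FPKM. The 5 fibroblast markers summed to 20.6 FPKM in shSox21os, against 9.75 and 11.2 FPKM in the controls. Of these markers, 2 were below 1 FPKM in all 7 libraries. The 5 epithelial markers summed to 157 FPKM in shSox21os, compared with 92.0 and 103 FPKM in the controls, with 1 of them below 1 FPKM in all 7 libraries. In both lists the median against the other knockdowns was near 0, at 0.05 and -0.10. The part of other cell types in these differences was not tested.

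Genes of the integrated stress and amino acid response, which Atf4 drives, were more often below than above the controls. Of 25 measured, 10 lay below both by the 25% margin (6.05% of all entries did) and 2 above, with none called. Atf4 was at 71.7 FPKM in shSox21os, at 70.5 and 88.3 FPKM in shNr2f1as, at 71.8 and 72.7 FPKM in shPou3f3os, and at 135 and 133 FPKM in shCtrl. The control libraries were close to each other and above all 5 knockdown libraries. The log2 difference was -0.89 ± 0.15 (SE, adjusted p = 0.0784 by limma). Chac1, a glutathione-degrading target of Atf4, was at 3.89 FPKM in shSox21os, compared with 10.3 and 10.2 FPKM, Sesn2, a stress-induced regulator of mTORC1, at 50.7 FPKM, against 78.5 and 82.0 FPKM, and Trib3, a stress pseudokinase, at 3.21 FPKM, against 5.45 and 5.84 FPKM. The 2 above were Slc7a11, the cystine transporter, and Slc7a3, another amino acid transporter. Slc7a11 was at 2.76 FPKM in shSox21os, compared with 0.640 and 0.0933 FPKM in the controls, and Slc7a3 at 4.40 FPKM, against 2.37 and 1.90 FPKM. Against the other knockdowns the list's median was 0.15.

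The promoter of Chac1 is shown because it holds TGATGNAA, an element bound by Atf4 and its partners, in capitals on the opposite strand, 193 bases before the start. The window is chr2:119350992-119351241, plus strand, in GRCm38.p6 from RefSeq. Of the stress genes, 22 of 25 matched a RefSeq promoter and 8 of these hold the letters, which occur in 3.45% of all promoters searched on both strands. Whether the letters follow direction over the 22 genes was not counted. Among the genes given above with a promoter, they did not. Slc7a11, which lay higher, holds 2 matches, while Atf4, Sesn2 and Trib3, which lay lower, hold none.
Chac1 promoter: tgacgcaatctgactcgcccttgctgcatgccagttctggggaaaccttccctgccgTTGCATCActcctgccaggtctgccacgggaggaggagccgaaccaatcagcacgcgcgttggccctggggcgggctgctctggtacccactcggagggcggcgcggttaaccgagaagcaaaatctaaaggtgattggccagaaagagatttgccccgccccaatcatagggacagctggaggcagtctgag
The match is a description and not evidence of a bound site.

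**Figure D5:**
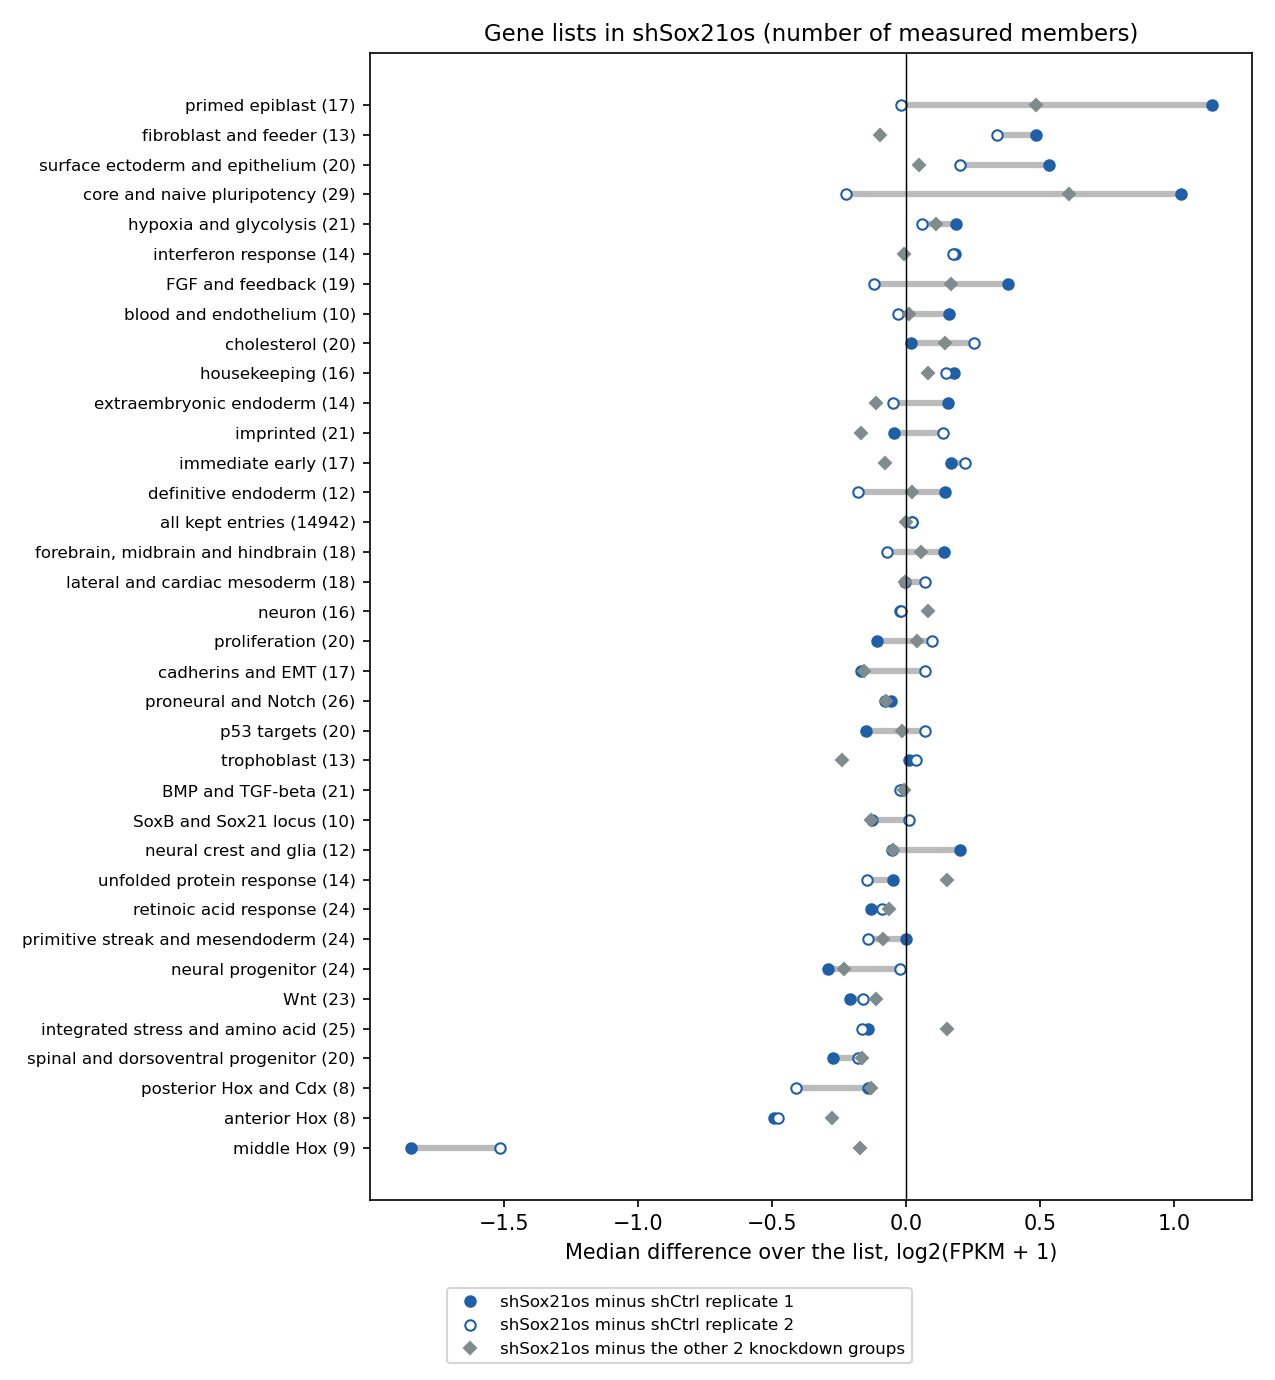
Median log2(FPKM + 1) difference of shSox21os (horizontal axis) over each gene list (vertical axis, number of measured genes in brackets), against control replicate 1 (filled), control replicate 2 (open) and the mean of the other 2 knockdown groups (diamonds). The middle Hox genes lie at -1.85 and -1.52 against the controls and at -0.17 against the other knockdowns.

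The shSox21os library was also tested against the mean of the other 2 retinoic acid knockdown groups. One of 14942 entries passed, XLOC_012997 (0.00669%, adjusted p = 0.00627 by limma), and 476 had an unadjusted p under 0.05 (3.19%). The locus was listed at 0 in shPou3f3os but at 6.37 and 4.28 FPKM in shNr2f1as, and limma passed 0 entries with a pseudocount of 0.1 (423 at an unadjusted p under 0.05) or a floor of 5 FPKM (232). Because the lone shSox21os library has no replicate, the test borrows its spread from the groups of 2. For XLOC_012997 all of these groups except shNr2f1as were at 0 and added no spread. By range, 8 of 9206 entries lay above all 6 other retinoic acid libraries by 1.5 times (0.0869%) and 12 below (0.13%). The same counts were 20 and 4, and 32 and 24, in the shNr2f1as libraries, 12 and 14, and 8 and 8, in the shPou3f3os libraries, and 23 and 74, and 42 and 295, in the controls. The count for shSox21os is within the range of these.

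Zic1, described among the neural progenitor genes, was 1 of the 12. Ephx2, soluble epoxide hydrolase, was at 25.8 FPKM in shSox21os, between 3.48 and 13.9 FPKM in the other knockdowns, and at 6.10 and 11.5 FPKM in the controls. Nrp2, a receptor for semaphorins, was at 2.15 FPKM in shSox21os, between 3.84 and 6.11 FPKM in the other knockdowns, and at 5.85 and 4.07 FPKM in the controls. Actc1, at 32.0 FPKM, was also above all 6, and Dnajb3, a testis co-chaperone, was below all 6 at 2.39 FPKM, against 6.19 and 6.30 FPKM in the controls. None of these passed the adjusted test, and they were named after their values were seen.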

How the data were processed

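Polyadenylated RNA was sequenced from 19 libraries made with a stranded mRNA kit, per the labels' protocols. The authors deposited one table of FPKM values with 38424 entries, 11588 of them unnamed assembled loci. CASAVA, TopHat2 2.0.11 and the builds mm9 and mm10 are named in the submitters' processing notes; for the quantifier, annotation and use of strand, nothing is stated in those notes or labels. Read counts were not used here, so no count model, sampling interval or absolute depth is given, and abundant genes are the more precise. A fold change on log2(FPKM + 1) understates that of low genes.

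An entry was kept if 2 or more libraries reached 1 FPKM (14942 were). Group means of the 12 groups were estimated together on log2(FPKM + 1) in limma 3.58.1 (R 4.3.3) with a variance prior following the mean level. It has 7 residual degrees of freedom, and the single shSox21os library is assumed to vary like the groups of 2. What the p-values measure is the spread between libraries, which may be technical. Positions in mm9 come from the table with starts made 1-based; promoters come from RefSeq GRCm38.p6 and transcript length and GC content from GENCODE M21, and the builds were not mixed.

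The members and the 35 gene lists were chosen with earlier results of these data known. Genes named were Sox21 and entries within 100 kb, named genes called against control, the 12 largest rises and falls by distance from the nearer control with at least 5 FPKM, up to 4 members of each list outside both controls by at least 25%, and 11 defining factors; genes outside this rule were named after their values were seen. Alternatives were a pseudocount of 0.1, no filter, a floor of 5 FPKM, retinoic acid libraries alone, 2 rescalings, no variance trend, a replicate block, a fold of 1.5, and each replicate left out.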

Additional observations from a re-analysis of the deposited data

Results flagged for a closer look

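The unnamed locus XLOC_012997 differed between shSox21os and the other retinoic acid knockdowns by the test of that difference (log2 difference 1.97, adjusted p = 0.00627 by limma). It was at 8.79 FPKM in shSox21os, at 6.37 and 4.28 FPKM in shNr2f1as, and listed at 0 in shPou3f3os and in the controls, so it lay nearer to one of the other knockdown groups than to the other. Among the groups of 2, only shNr2f1as was above 0, so the others added no spread to this test.

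Spp1 and Gm12319 lay on one side of the controls in shSox21os and on the opposite side in all 4 other knockdown libraries, and neither passed against the other knockdowns (adjusted p = 1.0 by limma for each). Spp1, a secreted phosphoprotein, was at 8.74 FPKM in shSox21os, at 2.86 to 5.99 FPKM in the other knockdowns, and at 6.59 and 6.68 FPKM in the controls (log2 difference 0.35 from control). The predicted gene Gm12319 was at 0.334 FPKM in shSox21os, at 1.95 to 5.11 FPKM in the other knockdowns, and at 1.87 and 1.78 FPKM in the controls (log2 difference -1.08 from control).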

How the results depend on the processing

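The 10 calls against control became 216 with no filter on low values, 17 (12 higher, 5 lower) with a replicate block, and 29 to 186 with a control left out. They numbered 7 to 10 under the other settings. The fit of retinoic acid libraries alone made 7 calls and shared 1 of the 10. A pseudocount of 0.1 shared 6 of the 10, losing AK019124, Emc2, Pramef12 and XLOC_006022, and a floor of 5 FPKM shared 7, losing AK019124, Gm8994 and XLOC_006022. The 110 entries outside both controls by 2-fold became 397 at a fold of 1.5 and 348 to 397 with a control left out. Against the other knockdowns, the 1 call became 178 with no filter, 5 with retinoic acid libraries alone, and 1 to 2 with a library left out. It became 0 with a pseudocount of 0.1 (423 at an unadjusted p under 0.05 by limma) and 0 with a floor of 5 FPKM (232 unadjusted). The cause of these shifts was not tested.

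Direction turned without control replicate 1 for Gpr180, Sox3, Pou5f1, Nanog and T. With either control left out their log2 differences ranged from -0.04 to 0.207 for Gpr180, from -0.0843 to 0.0236 for Sox3, from -0.64 to 2.02 for Pou5f1, from -0.78 to 1.86 for Nanog and from -0.55 to 0.15 for T. The replicate block turned Gata4 (-0.0053) and Tubb3 (0.0869). None of these was called. Over 155 genes and all settings, 1479 of 1529 values kept direction and side of the threshold, 20 lost a call and 23 gained one. Most of these genes had no call to lose, and all 20 losses fell on the 10 called entries. The pooled count therefore says little about how stable the calls are. Deviations of same-numbered libraries from their group means correlated between control and shNr2f1as (r = 0.30) but not between control and shPou3f3os (-0.02) or between the other 2 (-0.05), and shSox21os has only number 1. The numbers were therefore not taken to pair the libraries. With 1 knockdown library, precision is limited by the spread borrowed from other groups and by the distance between the controls.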

Other observations

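Signalling and stress lists outside the neural programme held smaller differences, none of which passed the limma test except Myc. By the 25% margin, 6.05% of all entries lay below both controls and 10.3% above. Of 20 p53 targets, 5 lay below by that margin and none above, while 8 lay below and 8 above at all and the median was -0.03. Cdkn1a, the cell cycle inhibitor p21, was at 51.7 FPKM in shSox21os, at 60.7 to 73.1 FPKM in the other knockdowns, and at 101 and 78.0 FPKM in the controls. Of 17 immediate early genes, 5 lay above and Myc below by the same margin. Fos was at 2.42 FPKM in shSox21os, at 2.36 to 3.85 FPKM in the other knockdowns, and at 1.06 and 0.963 FPKM in the controls, and Egr1 was at 15.9 FPKM in shSox21os, at 8.04 to 11.3 FPKM in the other knockdowns, and at 7.29 and 9.83 FPKM in the controls. Of 14 interferon response genes, 4 lay above by it and none below, with Irf1, an interferon-induced factor, at 18.2 FPKM in shSox21os and at 4.95 and 10.1 FPKM in the controls.

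Of 23 Wnt pathway genes, 4 lay below and 1 above by the 25% margin. Wnt3a, a canonical ligand, was at 0.786 FPKM in shSox21os, at 0.817 to 2.78 FPKM in the other knockdowns, and at 4.81 and 2.18 FPKM in the controls. Sfrp5, a secreted Wnt inhibitor, was at 127 FPKM in shSox21os and at 303 and 207 FPKM in the controls. The basement membrane collagens lay lower as a pair, with Col4a1 at 19.3 FPKM in shSox21os and at 51.3 and 35.3 FPKM in the controls, and Col4a2 at 17.1 FPKM in shSox21os and at 44.0 and 25.5 FPKM in the controls.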
